A study of Mus musculus with 10 samples.

Results

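Cholesterol and fatty acid synthesis was followed through 31 genes of these pathways, all 31 of which were found by symbol among the 20006 genes of the deposited table and all of which were tested. The genes were taken from a list of pathway members. RNA-seq had been carried out on 10 whole mouse embryos at embryonic day 7.5, during gastrulation, of which 5 were wild type (WT) and 5 carried the genotype label of Axin1 and Axin2 mutants (DKO) and are called mutants here by that label. Axin proteins are scaffolds on which β-catenin is tagged for breakdown and WNT signalling is thereby kept low. Strain, litter, sex and the structure of the mutant alleles were not stated in the sources used here, and no treatment is named. Each library came from 1 whole embryo. A lower or higher level can therefore come from fewer or more cells of a type, or from less or more RNA per cell. These cannot be told apart in bulk samples.

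Cholesterol is built from acetyl-CoA through mevalonate and squalene to lanosterol, and from there by a series of demethylations, reductions and a desaturation. Fatty acids are built from the same acetyl-CoA, which ATP citrate lyase (Acly) supplies, by fatty acid synthase (Fasn), and are then lengthened by Elovl enzymes and desaturated by Scd enzymes. Both branches are controlled by the SREBP transcription factors (genes Srebf1 and Srebf2), which the escort protein Scap carries to the Golgi for activation when sterols are low and which the Insig proteins hold back when sterols are plentiful. In the gastrulating embryo the visceral endoderm takes up maternal lipids and secretes lipoproteins, and cholesterol is also attached to Hedgehog proteins.

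In the mutants, 7 of the 11 enzymes of the steps from farnesyl diphosphate to cholesterol rose, with Msmo1, Sc5d and Cyp51 in the lead, and Fdft1, Sqle, Tm7sf2 and Dhcr7 did not pass the test. In the fatty acid branch Fasn and Acly fell and the elongase Elovl5 and the desaturase Scd1 rose. Of the 31 genes, 12 rose and 2 fell past the threshold (limma, adjusted p under 0.05), against 11.4% and 13.8% of the 15429 genes tested. These counts depended on single embryos: 6 rose and 1 fell without WT 5 (against 6.94% and 9.29% of all genes), 6 and 1 without mutant 2 (8.04% and 10.8%), and 7 and 1 without mutant 3 (7.89% and 11.1%). All the genes that rose except Elovl5, Scd1 and Stard4 belong to the 18 enzymes of the sterol pathway, of which 9 rose, 0 fell and 9 did not pass. The median log2 fold change, mutant over WT, was 0.35 over the sterol pathway enzymes and −0.082 over the 7 fatty acid enzymes, beside 0.013 over all genes tested. In 6 of the 31 genes the embryos of the genotypes did not overlap (5 higher and 1 lower in mutants), against 17.1% of all genes tested. The largest rise, 2.11-fold, was that of the methylsterol oxidase Msmo1.

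**Figure D1:**
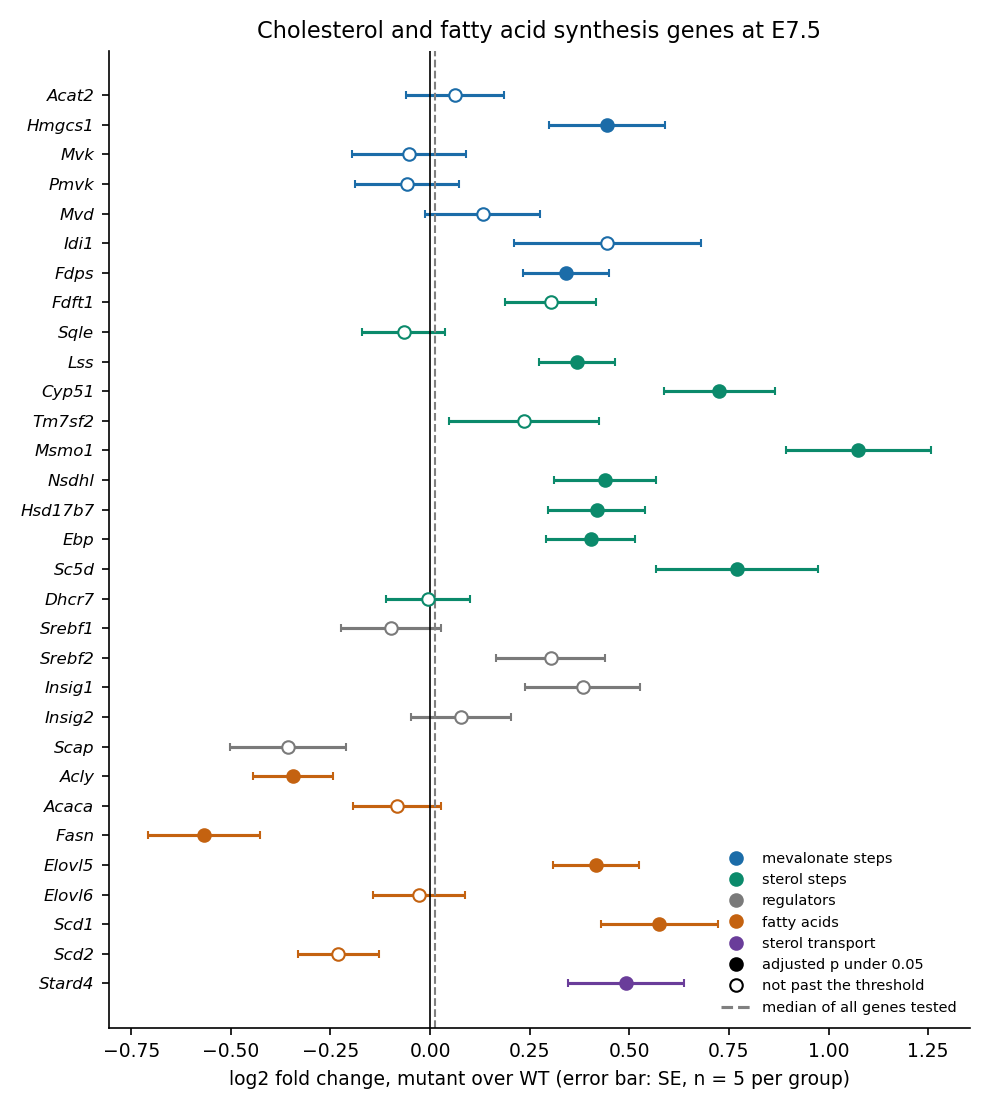
Log2 fold change (mutant over WT) of the 31 genes in pathway order, with the standard error as bars (n = 5 embryos per group); filled symbols passed an adjusted p of 0.05 and the dashed line is the median of all genes tested (0.013). The filled sterol symbols all lie to the right of 0, with Msmo1 at 1.08 the farthest, and Fasn lies farthest to the left at −0.57.

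Libraries held 20744547 to 28505209 reads over the listed genes. The values used are scaled counts, reads divided by the authors' size factor of each embryo (0.881 to 1.20). As a check of the labels, Axin1 measured 3314, 3764, 3509, 3325 and 3843 scaled counts in WT embryos 1 to 5 and 1319, 1134, 1108, 2336 and 819.5 in mutants 1 to 5. It fell by 1.49 (log2 scale; SE 0.21, adjusted p = 0.000614). Axin2 lay at 395 to 485 in WT and 349 to 603 in mutants (log2 change −0.0078, adjusted p = 0.981), so its RNA level does not bear out the Axin2 part of the label, and whether the allele would lower it was not stated. The library labelled mutant 4 had the highest Axin1 level of the mutants and stood apart from the other 4 on the second principal component of all genes tested, so results are also given without it. Without mutant 4, 14 of the 31 genes rose and 3 fell, against 13.4% and 16.0% of all genes tested.

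Promoter sequences are shown for the 3 sterol enzymes with the largest rise, for Hmgcs1, which held a match to a core of the sterol response element, and for Fasn, which fell. They come from RefSeq (build GRCm38.p6) and cover the 250 bases before the annotated start, 5′ to 3′ on the strand of the gene; the start annotated by RefSeq can differ from that of GENCODE, which the gene coordinates given further on follow. Capitals mark CCAAT or its reverse complement ATTGG, the core letters that the factor NF-Y binds beside SREBP in sterol genes, and TCACNCCAC, a core of the sterol response element, both searched on both strands.
Msmo1, chr8:64733579-64733828, minus strand: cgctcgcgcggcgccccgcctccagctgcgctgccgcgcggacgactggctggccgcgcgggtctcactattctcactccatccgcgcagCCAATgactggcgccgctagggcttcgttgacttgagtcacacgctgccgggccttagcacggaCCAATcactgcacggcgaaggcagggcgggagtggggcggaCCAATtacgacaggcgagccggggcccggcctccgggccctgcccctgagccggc
Sc5d, chr9:42264301-42264550, minus strand: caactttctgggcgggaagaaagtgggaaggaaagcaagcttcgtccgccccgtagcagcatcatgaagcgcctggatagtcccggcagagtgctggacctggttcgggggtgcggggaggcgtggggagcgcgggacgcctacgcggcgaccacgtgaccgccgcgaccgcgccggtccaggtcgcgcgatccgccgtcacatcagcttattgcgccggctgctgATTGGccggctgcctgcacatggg
Cyp51, chr5:4104698-4104947, minus strand: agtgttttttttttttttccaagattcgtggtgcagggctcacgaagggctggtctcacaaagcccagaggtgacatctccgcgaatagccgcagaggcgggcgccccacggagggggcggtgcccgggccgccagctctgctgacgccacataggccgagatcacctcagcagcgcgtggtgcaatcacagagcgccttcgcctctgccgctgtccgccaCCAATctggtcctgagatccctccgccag
Hmgcs1, chr13:119690101-119690350, plus strand: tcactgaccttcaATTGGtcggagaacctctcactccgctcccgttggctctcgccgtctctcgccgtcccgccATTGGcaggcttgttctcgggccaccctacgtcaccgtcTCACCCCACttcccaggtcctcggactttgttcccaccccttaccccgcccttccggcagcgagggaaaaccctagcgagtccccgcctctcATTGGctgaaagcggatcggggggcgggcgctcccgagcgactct
Fasn, chr11:120824548-120824797, minus strand: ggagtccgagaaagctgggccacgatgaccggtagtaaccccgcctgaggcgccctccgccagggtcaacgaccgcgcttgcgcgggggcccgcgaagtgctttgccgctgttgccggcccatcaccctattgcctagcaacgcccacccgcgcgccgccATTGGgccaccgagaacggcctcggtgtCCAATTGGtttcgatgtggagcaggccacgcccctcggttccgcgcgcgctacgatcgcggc
A window was found for 25 of the 31 genes, and 20 of these held CCAAT in at least 1 window, against 40.5% of the 10798 tested genes with a window and 37.5% of all 27025 genes in the promoter set. Sterol enzymes that rose held it in 8 of 8 genes with a window, and those that did not pass held it in 6 of 7. In the fatty acid enzymes it was found in 2 of 5 genes, Fasn and Elovl5, and in the Fasn window 2 of the 3 matches overlap. TCACNCCAC was found in Hmgcs1 alone, 137 bases before the start, against 1.24% of tested genes. CACGTG, the E-box that SREBP-1 can also bind, was found in 6 of 25 genes (Dhcr7, Elovl5, Hsd17b7, Insig1, Sc5d and Scap), against 9.85% of tested genes. These are matches of letters, not measured binding. The Msmo1 and Cyp51 windows reach into the GENCODE spans of their own genes. All 3 CCAAT matches of Msmo1 and the 1 match of Cyp51 lie inside those spans, not before them.

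Among the 7 genes of the mevalonate steps, 2 rose and 5 did not pass, where 11.4% of all genes tested rose. Hmgcs1, the cytosolic synthase that makes HMG-CoA, had 1984, 1630.4, 2649, 2483 and 2107 scaled counts in WT embryos 1 to 5 and 2899.9, 3694, 3074, 2539.8 and 2495 in mutants 1 to 5. Its log2 change was 0.44 (SE 0.15, adjusted p = 0.0420), and 3 of 5 mutants lay above every WT embryo. Fdps, which makes farnesyl diphosphate, the branch point to sterols and to protein prenylation, had 1006, 1048, 1040.2, 1120.4 and 1127 in WT and 1309, 1606, 1523, 1132 and 1247 in mutants. The groups of Fdps did not overlap, as was the case for 7.14% of tested genes in this direction, at a log2 change of 0.34 (SE 0.11, adjusted p = 0.0370). Both calls were near the threshold. Both were lost with scaling by total reads (adjusted p = 0.0719 for Hmgcs1 and 0.0672 for Fdps), with TMM scaling (0.0570 and 0.0536) and without the intensity trend (0.0757 and 0.0561). The call of Hmgcs1 was lost without WT 1, 2 or 5 or mutant 1, 2 or 3 (adjusted p = 0.0754 to 0.100), and that of Fdps without any 1 WT embryo or mutant 1, 2 or 3 (adjusted p = 0.0519 to 0.0924).

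The other genes of these steps did not differ past the threshold. Idi1, the isomerase of isopentenyl diphosphate, had a fold change as large as that of Hmgcs1 (log2 change 0.45, SE 0.23, adjusted p = 0.184) but varied more, from 162 to 329 scaled counts in WT and 255 to 542 in mutants. The thiolase Acat2, which makes acetoacetyl-CoA, had 1971, 2057, 2679.9, 2497 and 2252 in WT and 2489, 3003, 2076, 2072 and 2363 in mutants (log2 change 0.063, SE 0.12, adjusted p = 0.745). The mevalonate kinase Mvk lay at 623 to 919.9 in WT and 585 to 866 in mutants (log2 change −0.053, SE 0.14, adjusted p = 0.819), and the phosphomevalonate kinase Pmvk at 566 to 812 and 534 to 708 (log2 change −0.059, SE 0.13, adjusted p = 0.775). The decarboxylase Mvd, which ends this stage, lay at 754 to 1223 in WT and 804 to 1110.1 in mutants (log2 change 0.13, SE 0.14, adjusted p = 0.536). The groups overlapped for Idi1, Acat2, Mvk, Pmvk and Mvd alike. Some of these counts are uncertain because other annotated genes carry the same sequence: 86.4% of the 50-base stretches of the main Fdps transcript also occur in transcripts of other genes, as do 45.9% of those of Acat2 (shared with its neighbour Acat3) and 30.5% of those of Idi1. Strand was not recorded, and exons of Hmgcs1, Idi1, Fdft1, Lss, Cyp51, Srebf1, Scap and Elovl6 overlap those of a gene on the opposite strand, whose reads cannot be told apart from theirs.

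In the sterol steps, 7 of 11 enzymes rose and 4 did not pass, where 11.4% of all genes tested rose. The 3 with non-overlapping groups were Msmo1, Cyp51 and Lss. Msmo1 (chromosome 8, 64718139 to 64733792, mm10), which oxidises the methyl groups that are removed from lanosterol's descendants, had 675, 552, 921, 665 and 561 scaled counts in WT embryos 1 to 5 and 1223, 1989.5, 1601, 1129.9 and 1213 in mutants 1 to 5. Every mutant lay above every WT embryo, from 675 ± 149 to 1431 ± 361 (SD, n = 5), a log2 change of 1.08 (SE 0.18, adjusted p = 0.00157). Cyp51 (chromosome 5, 4081145 to 4104746), the lanosterol demethylase that removes the first methyl group, had 807, 876, 1067, 904 and 852 in WT and 1351, 2063, 1566, 1309 and 1260.2 in mutants. Its mean went from 901 ± 99.5 to 1509.9 ± 331, a log2 change of 0.73 (SE 0.14, adjusted p = 0.00328), and mutant 2 was highest for both genes.

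Lss (chromosome 10, 76531588 to 76557138), the cyclase that closes the sterol ring system, had 884, 954, 911, 943 and 827 in WT and 1218, 1135, 1314, 1014 and 1165 in mutants, at a log2 change of 0.37 (SE 0.10, adjusted p = 0.0157). Mutant 4 was the lowest of the mutants and lay only just above WT 2. Sc5d (chromosome 9, 42251595 to 42264256), the sterol desaturase, had 481, 547, 659, 679 and 437 in WT and 1092, 1425, 669, 757 and 949 in mutants, a log2 change of 0.77 (SE 0.20, adjusted p = 0.0165). Its groups overlapped, since mutant 3 lay below WT 4, and it varied more between mutants than any other enzyme that rose (SD of 0.43 on the log2 scale). These 4 genes kept their direction and their call in each of the 20 alternatives, the largest adjusted p being 0.0499 for Lss.

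**Figure D2:**
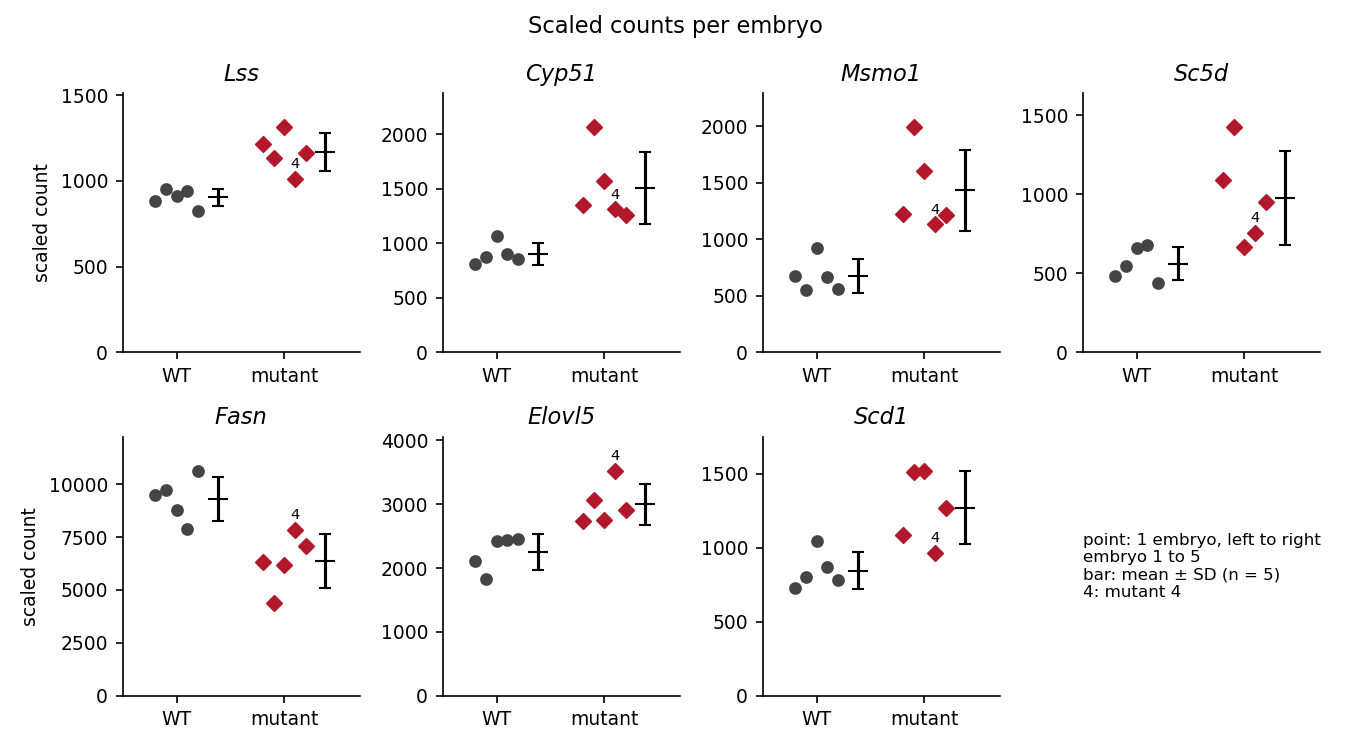
Scaled counts (linear axes from 0) of the 7 genes whose call held in each alternative, 1 point per embryo in the order 1 to 5, with the mean ± SD (n = 5) beside each group. Mutant points lie above all WT points for Lss, Cyp51, Msmo1 and Elovl5 and below them for Fasn; Sc5d overlaps through mutant 3 and Scd1 through mutant 4.

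The other enzymes of demethylation, Nsdhl and Hsd17b7, and the isomerase Ebp also rose. Nsdhl, the decarboxylating dehydrogenase, had 694, 581, 740.4, 664 and 661 scaled counts in WT and 927, 1108, 954, 697 and 880.3 in mutants (log2 change 0.44, SE 0.13, adjusted p = 0.0260). Hsd17b7, the ketoreductase, had 672, 719, 964, 739 and 760.4 in WT and 935, 1196, 1089.9, 909.6 and 1007 in mutants (log2 change 0.42, SE 0.12, adjusted p = 0.0255), with 3 mutants above every WT embryo. Ebp, the sterol isomerase, had 731, 759, 715, 769 and 688 in WT and 1109.8, 1059.9, 978, 766 and 966 in mutants (log2 change 0.40, SE 0.11, adjusted p = 0.0206). For Nsdhl and Ebp, 4 of 5 mutants lay above every WT embryo and mutant 4 lay within the WT range. Their calls depended on single embryos. That of Nsdhl was lost without WT 2 or 5 or mutant 1, 2 or 3 (adjusted p = 0.0551 to 0.0646) in turn. That of Hsd17b7 was lost without WT 1, 4 or 5 or mutant 2 or 3 (adjusted p = 0.0508 to 0.0648), and that of Ebp without WT 5 or mutant 1 or 2 (adjusted p = 0.0516 to 0.0563).

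The sterol enzymes that did not pass include the second step after farnesyl diphosphate and the last one of the pathway. Sqle, the squalene epoxidase and a known control point, had 1877, 2028, 2121, 1813 and 1829 scaled counts in WT and 1656, 1974, 1819, 2243 and 1598 in mutants, a log2 change of −0.066 (SE 0.10, adjusted p = 0.681). Dhcr7, the final reductase, had 1076 ± 51 in WT and 1079 ± 141 in mutants (SD, n = 5; log2 change −0.0048, SE 0.11, adjusted p = 0.981). Its WT values kept within 1020.4 to 1133, while the mutants spread from 906 to 1241, on both sides of WT. Fdft1, the squalene synthase, had 1197, 1243, 1204, 1242 and 1226 in WT and 1550.5, 1867, 1643, 1189.5 and 1375 in mutants. Its WT embryos agree to within 21.2 scaled counts (SD), 4 mutants were higher and mutant 4 was lower than all of them (log2 change 0.30, SE 0.12, adjusted p = 0.0732). Without mutant 4 it passed (0.39, adjusted p = 0.0126), and 30.7% of its 50-base stretches also occur in transcripts of other genes, mostly those of Ctsb on the opposite strand. Tm7sf2, a sterol reductase, had 220.0 ± 46.9 in WT and 259.5 ± 49.8 in mutants (log2 change 0.24, SE 0.19, adjusted p = 0.385).

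None of the 5 regulators passed the threshold, where 25.1% of all genes tested passed it in either direction. Insig1, itself a target of SREBP that holds Scap in the endoplasmic reticulum, had 805, 695, 739, 844 and 644 scaled counts in WT and 888, 1323, 1057, 831 and 822 in mutants, with 3 mutants above every WT embryo (log2 change 0.38, SE 0.14, adjusted p = 0.0693). Srebf2, whose product drives sterol genes, had 2774, 3963, 2655, 2334 and 3055 in WT and 3996, 3574, 4093, 3016 and 3379 in mutants (log2 change 0.30, SE 0.14, adjusted p = 0.124), and WT 2 reached the level of the mutants. Scap had 1877, 2351, 1941, 1917 and 2379 in WT and 1656, 1321, 1302, 2161 and 1839 in mutants (log2 change −0.36, SE 0.15, adjusted p = 0.0909), and the mutants except mutant 4 lay below every WT embryo. Srebf1, whose product drives fatty acid genes, lay at 1429 to 2029.9 in WT and 1314 to 1862 in mutants (log2 change −0.10, SE 0.13, adjusted p = 0.601), and Insig2, the relative of Insig1, at 578 to 761 and 601 to 839.7 (log2 change 0.077, SE 0.13, adjusted p = 0.691). Single embryos decided several of these: Insig1 (0.44, adjusted p = 0.0437) and Scap (−0.46, adjusted p = 0.0200) passed without mutant 4, and Srebf2 without WT 2 (0.41, adjusted p = 0.0234). Stard4, a carrier of cholesterol between membranes, rose, with 836, 916, 941, 786 and 726 in WT and 1112, 1352, 1563, 906 and 1065 in mutants (log2 change 0.49, SE 0.15, adjusted p = 0.0279). Mutant 4 lay within the WT range, and the call was lost without WT 1, 4 or 5 or mutant 2 or 3 (adjusted p = 0.0532 to 0.0772).

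Fatty acid enzymes went both ways, with 2 of 7 lower, 2 higher and 3 not past the threshold. Of all genes tested, 13.8% were lower and 11.4% higher. Fasn (chromosome 11, 120805846 to 120824547), which builds palmitate, had 9499, 9719, 8784, 7888 and 10643 scaled counts in WT embryos 1 to 5 and 6313, 4404, 6169.7, 7862 and 7059 in mutants 1 to 5. All mutants lay below all WT embryos, as for 9.97% of tested genes in this direction, although mutant 4 and WT 4 differed by little. Its mean went from 9306 ± 1034 to 6362 ± 1285 (SD, n = 5), a log2 change of −0.57 (SE 0.14, adjusted p = 0.0120). Acly, which splits citrate to cytosolic acetyl-CoA for both branches, had 8052, 7892, 9223, 8945 and 9326 in WT and 6870.0, 5971, 6248, 8556 and 6776 in mutants (log2 change −0.34, SE 0.10, adjusted p = 0.0261). Mutant 4 alone lay within the WT range, and the call was lost without WT 4 or 5 or mutant 1, 2, 3 or 5 (adjusted p = 0.0502 to 0.0720) and without the intensity trend (adjusted p = 0.0599). Acaca, the carboxylase between Acly and Fasn, had 686, 732, 732, 709 and 729 in WT and 759.7, 614, 585, 797 and 658 in mutants (log2 change −0.082, SE 0.11, adjusted p = 0.622). Its WT embryos lay close together, and 2 mutants were above and 3 below all of them. Of its sequence, 52.6% of the 50-base stretches also occur in the annotated gene Gm5182.

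Of the 4 enzymes that modify the chain, 2 rose and 2 did not pass. Elovl5 (chromosome 9, 77917364 to 77984519), an elongase of polyunsaturated chains, had 2116, 1826, 2419, 2442 and 2449 in WT and 2729, 3069, 2759, 3524 and 2904 in mutants, every mutant above every WT embryo (log2 change 0.42, SE 0.11, adjusted p = 0.0150). Mutant 4 was the highest. Elovl6, which lengthens palmitate, had 1019.9 ± 145 in WT and 993 ± 61.4 in mutants (SD, n = 5; log2 change −0.028, SE 0.12, adjusted p = 0.884). Scd1 (chromosome 19, 44394455 to 44407879), a desaturase of saturated chains, rose from 725, 805, 1045, 867 and 785 in WT to 1088, 1509, 1520.0, 967 and 1266 in mutants (log2 change 0.58, SE 0.15, adjusted p = 0.0146), with mutant 4 within the WT range. Scd2, the desaturase with the higher level per kilobase in these embryos, had 8133, 8237, 10159.8, 10391 and 11438 in WT and 8759, 7483, 8078, 8464 and 8134 in mutants (log2 change −0.23, SE 0.10, adjusted p = 0.116), and did not pass.

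Ratios within an embryo do not depend on the scaling of the libraries. They are given for 4 pairs of related genes, chosen with the values of the single genes known, and are therefore a description with no test. Scd1 over Scd2 was 0.0891, 0.0977, 0.103, 0.0834 and 0.0686 in WT embryos 1 to 5 and 0.124, 0.202, 0.188, 0.114 and 0.156 in mutants 1 to 5. All mutants lay above all WT embryos, and the mean log2 ratio was higher by 0.81. Elovl5 over Elovl6 was 2.04, 2.37, 2.19, 2.32 and 2.16 in WT and 2.78, 3.05, 2.87, 3.81 and 2.67 in mutants, again with all mutants above WT, and higher by 0.44. Srebf2 over Srebf1 was 1.73, 1.95, 1.86, 1.61 and 1.63 in WT and 2.5, 2.72, 2.72, 1.62 and 2.21 in mutants, with 4 of 5 mutants above every WT embryo and mutant 4 within the WT range. Insig1 over Insig2 overlapped most, at 0.972 to 1.39 in WT and 1.19 to 1.64 in mutants, with 2 of 5 mutants above every WT embryo.

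**Figure D3:**
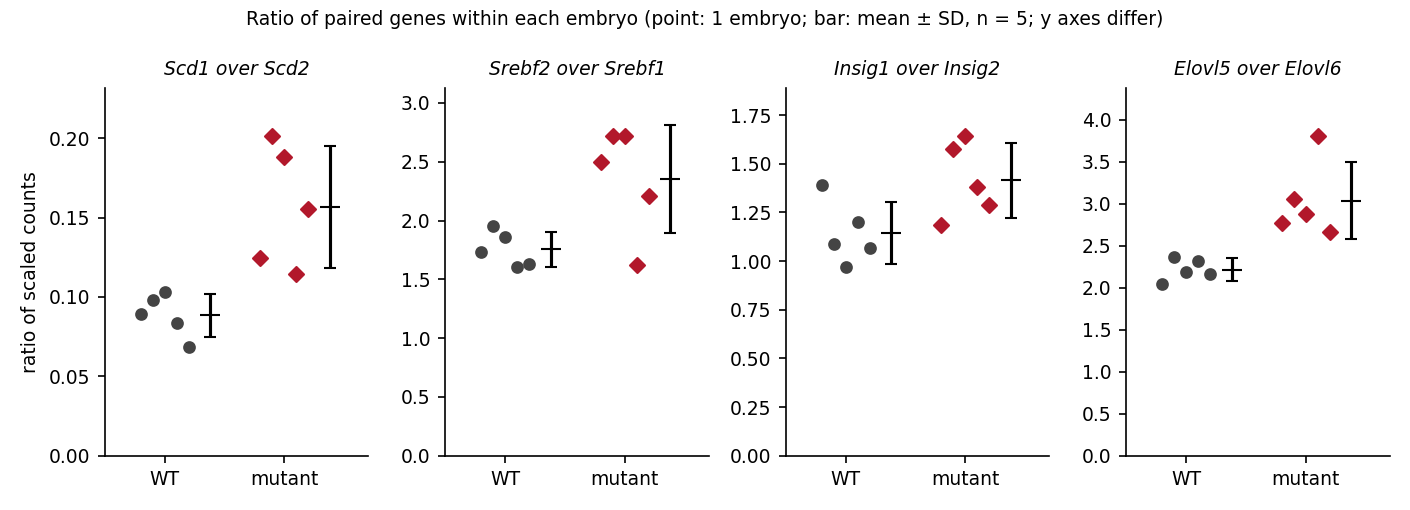
Ratio of scaled counts of 2 related genes within each embryo (linear axes from 0, 1 point per embryo in the order 1 to 5, mean ± SD beside each group, n = 5). The groups are apart for Scd1 over Scd2 (WT up to 0.103, mutants from 0.114) and Elovl5 over Elovl6 (WT up to 2.37, mutants from 2.67), and overlap for the other 2 pairs.

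Levels were compared between genes as scaled counts per kilobase of the main annotated transcript. In WT embryos Acly (1978 ± 153, SD, n = 5) and Scd2 (1773 ± 264) stood at the top, and their ranges of mean ± SD overlapped. Acat2 (1018 ± 132), Fasn (926 ± 103), Elovl5 (809 ± 98.9) and Fdps (773 ± 38.4) followed, with overlapping ranges between neighbours in this order. The reservation on shared sequence holds for Acat2 and Fdps. All genes were measured in the same embryos, and these overlaps do not compare them within an embryo. At the bottom lay Sc5d (117 ± 22.2), Idi1 (83.1 ± 20.5) and Acaca (75.5 ± 2.11). Msmo1 moved from rank 18 of 31 in WT (330.1 ± 72.9) to rank 8 in mutants (700.2 ± 177), and Scd2 and Acly kept the top places.

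The mean log2 level of the 18 sterol pathway enzymes, set against the WT mean, was −0.061, 0.0017, 0.091, 0.012 and −0.043 in WT embryos 1 to 5 and 0.34, 0.59, 0.39, 0.11 and 0.24 in mutants 1 to 5. Mutant 2 was the highest of the mutants for 10 of the 18 enzymes and mutant 4 the lowest for 12. Among WT embryos, WT 3 was highest for 8 enzymes and lowest for 3, and WT 2 was highest for 7 and lowest for 4. For the 7 fatty acid enzymes the same mean was −0.089, −0.14, 0.10, 0.021 and 0.11 in WT and −0.045, −0.13, −0.073, 0.065 and −0.0044 in mutants, so the groups overlapped, and mutant 4, the lowest mutant for the sterol enzymes, was the highest for these.

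Marker genes of several cell types also differed between the genotypes. Their counts are to be read against 11.4% higher and 13.8% lower over all genes tested (13.4% and 16.0% without mutant 4). Of 12 visceral endoderm markers 4 rose (Cubn, Apom, Dab2 and Hnf4a) and 0 fell, and without mutant 4, 6 rose. Their summed level was 134984 to 175596 scaled counts in WT, 201693 to 222559.6 in mutants 1, 2, 3 and 5, and 116974 in mutant 4, below all the other embryos. Mutant 4, lowest in this sum, was also the lowest of the mutants in mean sterol enzyme level, though still above every WT embryo. In mean log2 level against the WT mean, mutant 4 and then mutant 5 were the lowest mutants for both lists. They lay at −0.30 and 0.38 for the visceral endoderm markers and at 0.11 and 0.24 for the sterol enzymes. Mutants 1, 2 and 3 lay at 0.49, 0.43 and 0.44 for the markers and at 0.34, 0.59 and 0.39 for the enzymes. WT 2 lay at 0.35 for the visceral endoderm markers and at 0.0017 for the sterol enzymes. Whether the 2 levels are linked was not tested. No visceral endoderm marker was at 0 in any embryo. Of 8 epiblast markers 7 fell, with a summed level of 41398 to 56041 in WT and 14024 to 17937 in mutants, and Otx2 was at 0 in mutant 3 and Fgf5 in mutant 5. Markers of extra-embryonic mesoderm and allantois rose in 4 of 8 (5 higher and 1 lower without mutant 4) and those of blood progenitors in 3 of 8. Extra-embryonic ectoderm and trophoblast markers rose in 1 of 10 (2 higher and 1 lower without mutant 4), near the share of all genes. The one that rose was Bmp4, which also stands on the mesoderm list, as does Hand1. The trophoblast markers summed to 48005 in mutant 4, against 18378 to 23298 in WT. Parietal endoderm markers changed in 0 of 8 (1 lower without mutant 4). Markers of maternal decidua and blood rose in 2 of 8, and mutant 3 stood apart on this list, with 7017 scaled counts of the decidual Prl8a2, 138 of S100a8 and 89.6 of Ptprc, against at most 301, 6.06 and 13.4 in WT. Prl8a2 also measured 3260 in mutant 4, and every mutant (347 or more) lay above every WT embryo for it. The groups overlapped for the other genes of this list. Definitive endoderm markers fell in 3 of 5 and neural plate markers in 2 of 4 tested (4 of 4 without mutant 4). The part of these shifts in the lipid synthesis results was not tested.

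**Figure D4:**
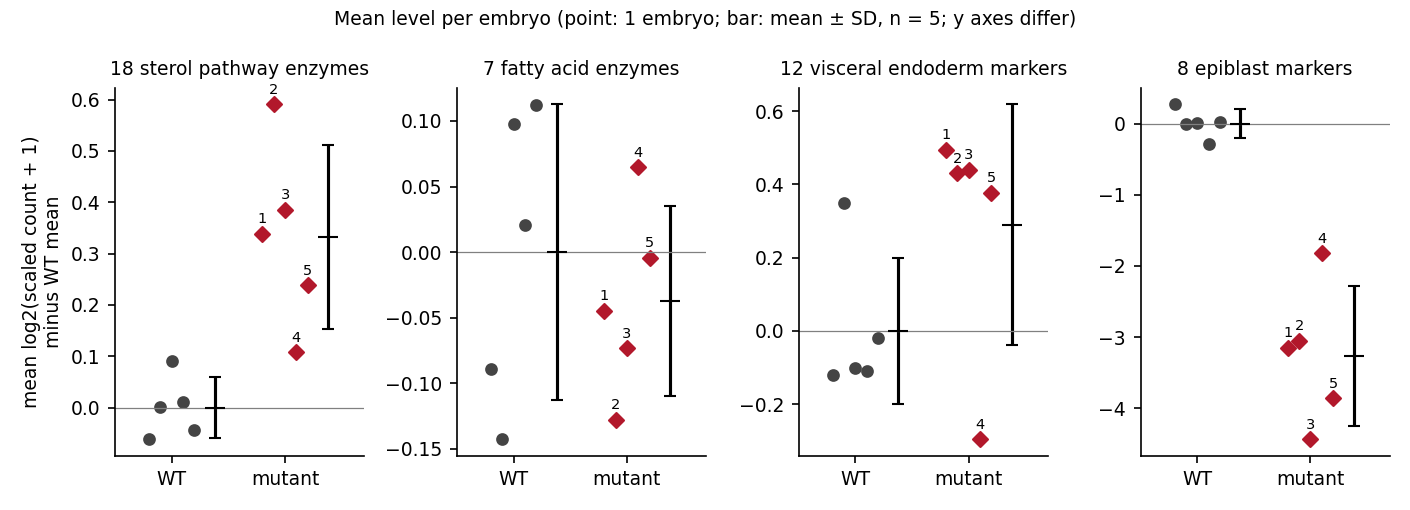
Mean of log2(scaled count + 1) over each gene list minus the WT mean, per embryo (numbers name the mutants; bars are mean ± SD, n = 5; the y axes differ). Mutants lie at 0.11 to 0.59 for the sterol enzymes, above WT, and mutant 4 is the lowest for both these and the visceral endoderm markers (−0.30). Mutant 5 is the next lowest mutant for both (0.24 for the sterol enzymes and 0.38 for the visceral endoderm markers). WT 2 lies at 0.35 for the visceral endoderm markers and at 0.0017 for the sterol enzymes.

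Genes around the pathways were counted on 5 lists, to be read against 11.4% higher and 13.8% lower over all genes tested. Other genes of lipid synthesis and acetyl-CoA supply (20 tested) rose in 4 cases and fell in 6, with a median log2 fold change of 0.064. Fads2, the desaturase that starts polyunsaturated fatty acid synthesis, had 1138, 1076, 1237, 1126 and 1409 scaled counts in WT and 381, 389.7, 419, 631 and 490.0 in mutants and fell by 1.39 (log2 scale; SE 0.15, adjusted p = 8.59e-05). Mid1ip1, which promotes the polymerisation of acetyl-CoA carboxylase, had 1585, 1877, 1449, 1434 and 2020.2 in WT and 274, 260.4, 494, 669 and 401 in mutants and fell by 2.07 (log2 scale; SE 0.24, adjusted p = 0.000138). In both, every mutant lay far below every WT embryo, and mutant 4 was the highest of them. Aacs, which activates acetoacetate for sterol synthesis (log2 change 0.62, SE 0.10, adjusted p = 0.00133), and Me1, a source of cytosolic NADPH (log2 change 0.96, SE 0.16, adjusted p = 0.00132), rose without overlap of the groups.

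Genes of SREBP processing, sterol sensing and the LXR receptors rose in 2 of 13 and fell in 2, shares near the 11.4% and 13.8% of all genes. Abcg1, a sterol exporter and LXR target, had 130.4, 85.5, 125, 87.9 and 259 scaled counts in WT and 1.89, 2.87, 11.2, 49.5 and 4.75 in mutants, the lowest of which rest on a few reads, and fell by 3.93 (log2 scale; SE 0.68, adjusted p = 0.00175), a size that depends on the pseudocount. The LXR gene Nr1h2 fell (log2 change −0.44, SE 0.12, adjusted p = 0.0221), and the sterol-binding protein gene Pgrmc1 (log2 change 0.53, SE 0.15, adjusted p = 0.0222) and the LXR target Mylip (log2 change 0.48, SE 0.16, adjusted p = 0.0476), whose product degrades lipoprotein receptors, rose. Sterol uptake and traffic genes rose in 5 of 16 and fell in 1 (7 and 1 without mutant 4), with a median of 0.30. Vldlr, a lipoprotein receptor, had 104, 102, 182, 124 and 95.8 in WT and 725, 458, 847, 499 and 605 in mutants (2.36, SE 0.22, adjusted p = 3.47e-05), with wide separation of the groups. The lysosomal sterol carrier Npc1 (log2 change 0.53, SE 0.10, adjusted p = 0.00268), the cholesterol acyltransferase Soat1 (log2 change 0.62, SE 0.12, adjusted p = 0.00354) and the sterol-regulated Tmem97 (log2 change 0.47, SE 0.10, adjusted p = 0.00616) rose, each with every mutant above every WT embryo.

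Fatty acid oxidation genes rose in 5 of 15 and fell in 0, with a median of 0.13. The trifunctional protein subunit Hadhb (log2 change 0.63, SE 0.10, adjusted p = 0.00127), the electron carrier enzyme Etfdh (log2 change 0.61, SE 0.11, adjusted p = 0.00185) and the carnitine carrier Slc25a20 (log2 change 0.39, SE 0.10, adjusted p = 0.0164) were among those that rose, each without overlap. Glycerolipid genes rose in 2 of 11 and fell in 2, where 11.4% and 13.8% of all genes did, so that these counts show nothing about the list. Plin2, a coat protein of lipid droplets, had 1914, 1750.2, 1796, 1602 and 1698 in WT and 2410.2, 2491, 2838, 4057 and 2878 in mutants (log2 change 0.72, SE 0.13, adjusted p = 0.00231), and mutant 4 was far above the rest. Lpin1, a phosphatidate phosphatase, fell (log2 change −1.22, SE 0.22, adjusted p = 0.00251), as did the acyltransferase Agpat1 (log2 change −0.42, SE 0.12, adjusted p = 0.0207), while the triglyceride-forming enzyme Dgat2 rose (log2 change 0.45, SE 0.15, adjusted p = 0.0396).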

How the data were processed

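Per the labels, RNA (1.9 to 2 ng) was amplified with the SMART-Seq v4 kit, which does not record strand. The submitters' processing notes name cutadapt 1.6, STAR 2.5.0a, HTSeq 0.5.3, DESeq and the build mm10. The deposited signal for a gene is its read count over the size factor of the embryo, as the authors scaled it: 100% of values were whole multiples of 1 step per embryo within 0.01 reads, so whole reads were recovered for alternatives. The 15429 of 20006 genes averaging 10 scaled counts or more were compared on log2(scaled count + 1) with limma 3.58.1 (intensity trend, R 4.3.3) and Benjamini-Hochberg adjustment over all of them, so a log2 fold change understates that of low genes. The pipeline was tested on simulated data. Alternatives were other pseudocounts (0.5, 5), filters (none, 50) and scalings (by total reads, TMM), no trend, edgeR 4.0.16, DESeq2 1.42.0, a replicate block and leaving out each embryo. Whether embryos of 1 group came from separate litters is not given, so the embryos may not be independent. The p-values set the difference of the group means against the spread between these embryos. A difference between litters could not be told apart from one of genotype. Transcript lengths, coordinates and shared 50-base stretches come from GENCODE M21 (GRCm38, the assembly of mm10). Named were all 31 genes and up to 4 of each surrounding list with the smallest adjusted p, of which 1 is not reported here. Genes, lists and tests were chosen with earlier results of these data known.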

Additional observations from a re-analysis of the deposited data

Results flagged for a closer look

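Of 62 groups examined (31 genes in 2 genotypes), 2 held an embryo far from the other 4 of its group, and chance flags about 1 in 20 groups. Both are WT 2. Tm7sf2 measured 303 scaled counts in WT 2, against 189.6 to 207 in the other WT embryos. Elovl6 measured 771 in WT 2, against 1038 to 1134 in the others. Neither gene passed the threshold between genotypes.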

How the results depend on the processing

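Of the 14 genes past the threshold, 7 (Lss, Cyp51, Msmo1, Sc5d, Fasn, Elovl5 and Scd1) passed it in each of 20 alternatives and 0 changed direction, while 4 of the other 17 passed in some alternative. Leaving out 1 embryo gave 6 to 14 genes higher (6 without WT 5 or mutant 2, 7 without mutant 3) and 1 to 3 lower (1 without WT 4, WT 5 or mutant 1, 2, 3 or 5), and 2505 (without WT 5) to 4535 genes past the threshold in all, against 3877. The median over the 31 genes was 0.22 to 0.36 (lowest without WT 4), over the sterol enzymes 0.27 to 0.41 and over the fatty acid enzymes −0.14 to −0.029. Without the intensity trend 1 gene was lower, beside 1895 of all 15429 genes tested (2123 in the main fit). Scaling by total reads or TMM and the model without the trend each left 10 genes higher, Hmgcs1 and Fdps being lost in all 3. Of all genes tested, 1386, 1499 and 1412 were higher in these 3 settings, against 1754 in the main fit. On the recovered reads edgeR called 1671 genes higher and 1925 lower, 12 and 2 of the 31. With DESeq2 14 genes were higher, Fdft1 and Insig1 being added (adjusted p = 0.0350 and 0.0388). DESeq2 called 2209 of all genes tested higher and 2324 lower. The shared replicate numbers do not pair the embryos (correlations of deviations between same-numbered embryos −0.079 to 0.079, 2 of 5 WT embryos correlating best with its own number among the mutants). With a replicate block 8 of the 31 genes were higher and 2 lower, Hmgcs1, Fdps, Nsdhl and Ebp not passing. Of all genes tested, 1436 were higher and 1817 lower with the block. Directions near 0 changed: leaving out 1 embryo, the log2 fold change ran from −0.022 to 0.12 for Acat2, −0.12 to 0.027 for Mvk, −0.12 to 0.015 for Pmvk, −0.058 to 0.056 for Dhcr7, −0.13 to 0.013 for Elovl6 and −0.12 to 0.073 for Axin2. With edgeR and DESeq2 it was 0.0016 and 0.0057 for Dhcr7 and 0.020 and 0.024 for Axin2. The causes were not tested.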
